A study of Homo sapiens with 8 samples.

Results

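GDF15, the activin subunits, the TGF-beta isoforms and their receptors were followed across the clones of LN229, a human glioblastoma cell line, that were sequenced with and without temozolomide (TMZ). The 10 genes are GDF15, INHBA, INHBE, GDF11, TGFB1, TGFB2, TGFB3, TGFBR1, TGFBR2 and SMAD7, out of 26364 genes in the count file. They were selected by symbol with earlier results of these same counts known, and which of those values weighed in the choice is not recorded. The levels and fold changes of these 10 genes are therefore given as a description, without p-values.

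TGF-beta family ligands are secreted as dimers and bind pairs of type I and type II receptor kinases, which phosphorylate SMAD proteins. TGF-beta isoforms are held in latent complexes in the matrix and need to be activated, activins are dimers of inhibin beta subunits, and SMAD7 is an inhibitor that the pathway itself induces. GDF15 is a distant member of the family, a secreted stress cytokine that is induced by p53 and by the integrated stress response and signals through GFRAL, a receptor of the hindbrain. Glioblastoma is known for secreting TGF-beta, which acts on the tumor cells and suppresses immune cells.

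TMZ is an alkylating drug used against glioblastoma. The Surv-GFP clone (D6) carries a fusion of GFP and Survivin whose nuclear export sequence (NES) works, and in the SurvNESmut-GFP clone (L2) the NES of the fusion is mutated, which traps Survivin in the nucleus. Both were sequenced without drug and after 48 h with 50 µM TMZ, and each of the 4 groups has 2 libraries, lettered a and b. Each form of Survivin is represented by 1 clone, so a difference between the forms and a difference between clones cannot be told apart. The study names both independent biological replicates and technical duplicates without tying them to the letters, so the spread between letters may be technical. Every SD below is that spread, and the standard errors come from 1 fit that draws on it in all 4 groups.

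The libraries held between 15826923 and 18861603 counts on genes, and 14201 genes had enough counts to be tested. The glial and glioma genes VIM, NES, CD44, EGFR and SOX2 were present in every library, while GFAP, the astrocyte filament gene, had at most 17 counts in any library. The leukocyte genes PTPRC and CD14, the endothelial gene PECAM1, the epithelial gene EPCAM and the neuronal gene RBFOX3 had at most 7 counts in any library. Of the other markers of these cell types, the epithelial gene KRT8 had 197 to 772 counts, the neuronal gene SYT1 had 597 to 3033, the endothelial gene VWF had 3 to 16, and the pericyte genes PDGFRB and RGS5 had 97 to 276 and 62 to 83. Across genes, the log2 CPM of libraries within a group had an r of 0.994 or more, and between groups of 0.986 or less. BIRC5, which encodes Survivin and is carried by both clones as a transgene, went from 1133 ± 27.9 to 1984 ± 64.6 CPM (SD, n = 2) upon TMZ in Surv-GFP cells and from 411 ± 5.22 to 258 ± 6.89 CPM (SD, n = 2) in SurvNESmut-GFP cells. In bulk RNA, fewer cells that express a gene and less RNA per cell cannot be told apart.

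Sequences upstream of the start sites are shown for GDF15 and INHBA, the most abundant of the ligand genes that were higher upon TMZ, and for GDF11, which was lower upon TMZ in both clones. They were taken from RefSeq (GRCh38.p14) and are written 5′ to 3′ on the strand of the gene. Capitals mark matches, on either strand, to 8 motifs that were searched in the 250 bases before each start site. The first stretch of GDF15 lies on the plus strand at chr19:18386025-18386054, 133 to 104 bases before the start site, and the second at chr19:18386118-18386147, 40 to 11 bases before it. Longer GDF15 transcripts of GENCODE begin further upstream, so that both stretches fall into exons of these and no longer run is printed. The INHBA window lies on the minus strand at chr7:41703109-41703340 and stops 19 bases before the start site, where an annotated exon begins. The GDF11 window lies on the plus strand at chr12:55742872-55743121 and overlaps no annotated exon.
GDF15 stretch with the CAGAC and GGGCGG matches: tacaccccCAGACcCCGCCCagctgtggtc
GDF15 stretch with the TATAAA match: agtccggggacTATAAAggccggtccggca
INHBA: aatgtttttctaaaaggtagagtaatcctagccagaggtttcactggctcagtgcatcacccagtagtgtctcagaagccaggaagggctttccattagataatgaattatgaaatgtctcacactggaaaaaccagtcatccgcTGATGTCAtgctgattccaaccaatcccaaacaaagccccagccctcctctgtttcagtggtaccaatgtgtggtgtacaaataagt
GDF11: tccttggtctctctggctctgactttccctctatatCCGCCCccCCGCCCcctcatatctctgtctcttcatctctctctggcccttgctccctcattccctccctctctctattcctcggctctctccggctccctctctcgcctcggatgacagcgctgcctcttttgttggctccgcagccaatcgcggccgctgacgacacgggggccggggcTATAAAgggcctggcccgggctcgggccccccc

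The cAMP response element TGANGTCA, the site of CREB and ATF factors, matched INHBA once, and 6.87% of the 35116 promoter windows of this length hold such a match. The SMAD box CAGAC, found in 38.0% of windows, matched GDF15 once and overlapped no other motif. The SP1 site GGGCGG, found in 42.6% of windows, matched GDF15 and GDF11 2 times each. The TATA box TATAAA, found in 10.7% of windows, stood 29 bases before the start of GDF15 and 33 before that of GDF11, and for INHBA it lay beyond the printed stretch. The SMAD palindrome GTCTAGAC (0.182% of windows), the AP-1 site TGANTCA (6.57%), the composite C/EBP and ATF site TGATGNAA (3.14%) and the p53 half-site (5.57%) had no match in the windows of these 3 genes. A match is a description of the letters, not a site of binding.

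Both clones had far more GDF15 RNA with TMZ than without it. In Surv-GFP cells, GDF15 had 14.7 and 16.9 CPM (read counts relative to the TMM-scaled total of the library) without TMZ and 1362 and 1553 CPM with TMZ, a log2 fold change of 6.53 (standard error 0.12) or 92.2-fold. In SurvNESmut-GFP cells, it had 77.9 and 64.2 CPM without TMZ and 409 and 499 CPM with TMZ, a log2 fold change of 2.67 (standard error 0.10) or 6.39-fold. The groups did not overlap in either clone. The order of the clones turned over, since untreated SurvNESmut-GFP libraries lay 4.49-fold above untreated Surv-GFP libraries and TMZ-exposed ones lay below the TMZ-exposed Surv-GFP libraries by a log2 difference of -1.68 (standard error 0.09). The difference between both TMZ effects, SurvNESmut-GFP minus Surv-GFP, was -3.85 (standard error 0.15) on the log2 scale.

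INHBA encodes the inhibin beta A subunit, which forms activin A. In Surv-GFP cells it had 43.6 and 40.7 CPM without TMZ and 253 and 284 CPM with TMZ, a 6.36-fold difference (log2 fold change 2.67, standard error 0.07). In SurvNESmut-GFP cells it had 26.6 and 29.4 CPM without and 74.8 and 73.7 CPM with TMZ, a 2.65-fold difference (log2 fold change 1.41, standard error 0.07). As with GDF15, no untreated library overlapped a TMZ-exposed library of its clone. Unlike GDF15, INHBA was lower in SurvNESmut-GFP cells both without TMZ (log2 difference -0.59, standard error 0.08) and with it (-1.85, standard error 0.06).

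INHBE, the inhibin beta E subunit and a gene known from the liver and from the integrated stress response, stood near the limit of detection. Untreated Surv-GFP libraries held 0 and 1 counts and TMZ-exposed ones 21 and 10, a ratio of summed counts of 31.4 with an exact 95% interval from 5.23 to 1279. Untreated SurvNESmut-GFP libraries held 3 counts each and TMZ-exposed ones 33 and 24, a ratio of 10.5 with an interval from 4.54 to 29.8. With TMZ the ratio of SurvNESmut-GFP to Surv-GFP was 2.01 (interval 1.28 to 3.23), and without TMZ it was 6.02 (interval 0.731 to 277), too wide to order the clones. These ratios are adjusted for library size and their intervals cover counting error only. INHBE passed the filter on low counts only through the TMZ-exposed groups, so that its presence among the tested genes already requires a difference. Unlike GDF15 and INHBA, it had its highest level in TMZ-exposed SurvNESmut-GFP cells. The log2 clone difference of INHBE with TMZ was 1.54 without replicate a of TMZ-exposed Surv-GFP and 0.62 without replicate b.

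GDF11, a ligand close to myostatin that signals through activin receptors, was lower upon TMZ in both clones. It had 200 and 206 CPM in untreated and 96.6 and 106 CPM in TMZ-exposed Surv-GFP cells, 0.499 times the untreated level. In SurvNESmut-GFP cells it had 24.7 and 25.2 CPM without and 16.2 and 17.7 CPM with TMZ, a log2 fold change of -0.56 (standard error 0.08). The separation of the clones was larger than either TMZ effect, with every SurvNESmut-GFP library below every Surv-GFP library. The clone difference was -3.02 (standard error 0.06) without and -2.58 (standard error 0.07) with TMZ on the log2 scale, 8.13-fold and 5.98-fold lower in SurvNESmut-GFP cells. Exons of GDF11 overlap those of SARNP in the reference annotation. Reads counted as lying on several genes stayed out, but the annotation and strandedness behind the counts were not given.

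**Figure D1:**
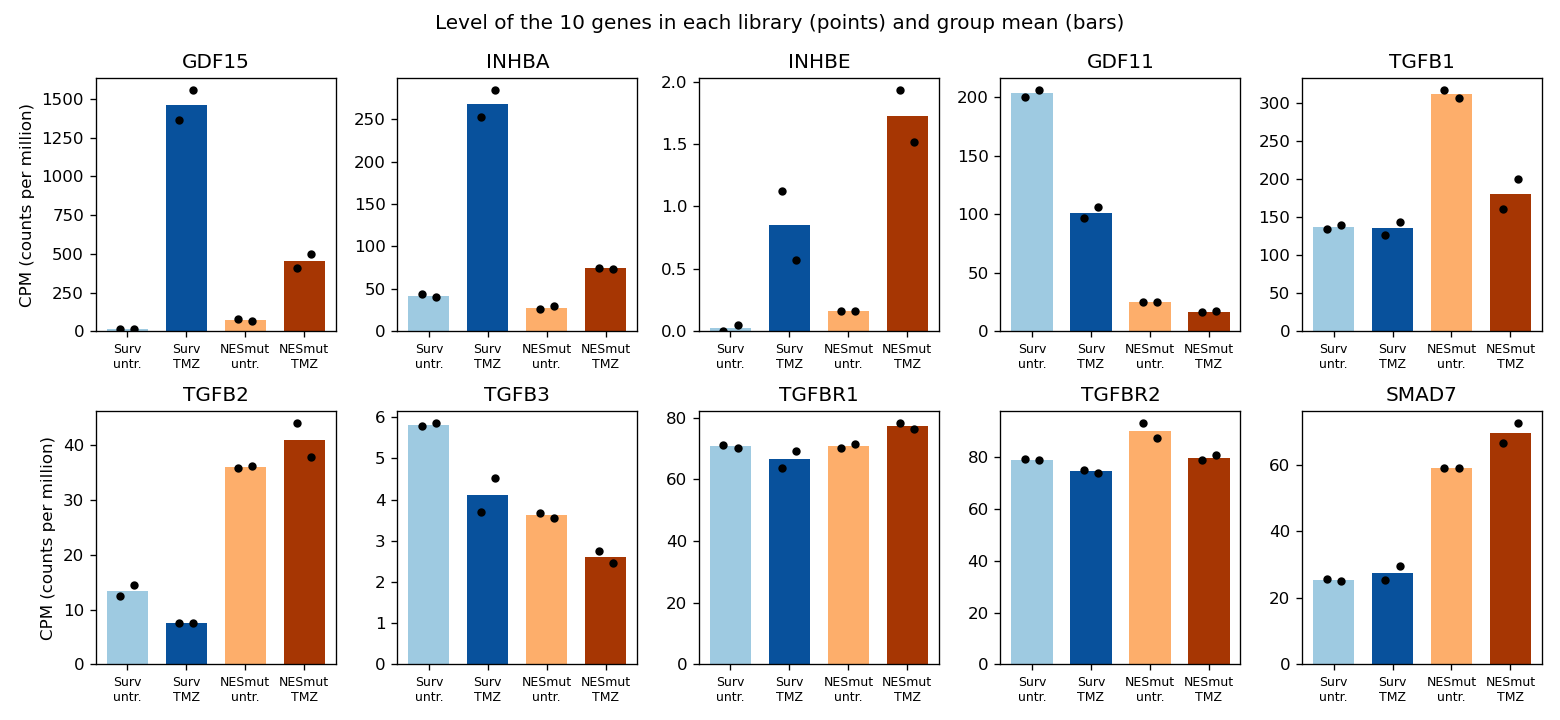
Level of each gene in CPM, on a linear axis that starts at 0 and differs between panels. Points are the 2 libraries of each group (untr., untreated; Surv, Surv-GFP; NESmut, SurvNESmut-GFP) and bars their mean. GDF15 reached 1362 and 1553 CPM in TMZ-exposed Surv-GFP cells, while every SurvNESmut-GFP library of GDF11 lay below every Surv-GFP library.

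The TGF-beta isoforms did not follow GDF15 and INHBA. TGFB1, the isoform best known as a regulator of immune cells and matrix, had 135 and 140 CPM in untreated and 127 and 144 CPM in TMZ-exposed Surv-GFP cells, and these groups overlapped. In SurvNESmut-GFP cells it had 317 and 307 CPM without and 161 and 201 CPM with TMZ, without overlap. Untreated SurvNESmut-GFP cells therefore held the highest TGFB1 level, 2.26-fold above untreated Surv-GFP cells, and with TMZ the clones stood 1.34-fold apart (log2 difference 0.42, or 0.21 without replicate b of TMZ-exposed SurvNESmut-GFP). The log2 fold changes were -0.03 (standard error 0.08) in Surv-GFP and -0.79 (standard error 0.08) in SurvNESmut-GFP cells, and their difference was -0.76 (standard error 0.11).

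TGFB2, an isoform first purified from glioblastoma cells as a suppressor of T cells, had fold changes of opposite sign in the clones. It had 12.4 and 14.5 CPM in untreated and 7.59 and 7.52 CPM in TMZ-exposed Surv-GFP cells, a log2 fold change of -0.83 (standard error 0.12). In SurvNESmut-GFP cells it had 35.8 and 36.2 CPM without and 43.9 and 37.8 CPM with TMZ, a log2 fold change of 0.18 (standard error 0.08). Without SurvNESmut-GFP TMZ replicate a this last value was 0.07, so that 1 library set most of it. Exons of TGFB2 overlap those of TGFB2-OT1 in the reference annotation. Every SurvNESmut-GFP library lay above every Surv-GFP library, by a log2 difference of 1.42 (standard error 0.10) without and 2.43 (standard error 0.11) with TMZ.

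TGFB3 was the isoform with the fewest counts. It had 5.80 and 5.85 CPM in untreated and 3.69 and 4.53 CPM in TMZ-exposed Surv-GFP cells, and 3.69 and 3.56 CPM in untreated and 2.75 and 2.46 CPM in TMZ-exposed SurvNESmut-GFP cells. The log2 fold changes upon TMZ were close to each other, -0.51 (standard error 0.16) in Surv-GFP and -0.47 (standard error 0.20) in SurvNESmut-GFP cells. TGFB3 shares exon sequence with its antisense gene TGFB3-AS1, and reads of both strands cannot be told apart here.

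The receptor genes differed little between the groups. TGFBR1, the type I receptor kinase of TGF-beta, had 71.3 and 70.1 CPM in untreated and 63.8 and 69.3 CPM in TMZ-exposed Surv-GFP cells, and 70.2 and 71.4 CPM in untreated and 78.1 and 76.4 CPM in TMZ-exposed SurvNESmut-GFP cells. Its log2 fold changes upon TMZ, -0.09 (standard error 0.06) and 0.13 (standard error 0.06), had opposite signs, and over the alternatives they ranged from -0.18 to -0.03 and from 0.11 to 0.16. TGFBR2, the type II receptor that binds TGF-beta first, had 79.3 and 79.0 CPM in untreated and 75.3 and 73.9 CPM in TMZ-exposed Surv-GFP cells, and 93.1 and 87.6 CPM in untreated and 78.9 and 80.9 CPM in TMZ-exposed SurvNESmut-GFP cells. TGFBR2 had a log2 fold change upon TMZ of -0.09 (standard error 0.05) in the Surv-GFP clone and of -0.18 (standard error 0.05) in the other clone. The largest fold change of either receptor over the TMZ effects and clone differences was 1.16.

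SMAD7, the inhibitory SMAD that recruits ubiquitin ligases to the receptor, separated the clones rather than the treatments. It had 25.7 and 25.1 CPM in untreated and 25.3 and 29.4 CPM in TMZ-exposed Surv-GFP cells, which overlapped, and 58.9 and 59.1 CPM in untreated and 66.6 and 72.4 CPM in TMZ-exposed SurvNESmut-GFP cells, which did not. The log2 fold changes upon TMZ were 0.11 (standard error 0.08) and 0.24 (standard error 0.07), and over the alternatives the first ranged from -0.03 to 0.22. The clone difference was 1.22 (standard error 0.07) without and 1.34 (standard error 0.07) with TMZ, so that SurvNESmut-GFP cells held 2.32-fold and 2.54-fold more.

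**Figure D2:**
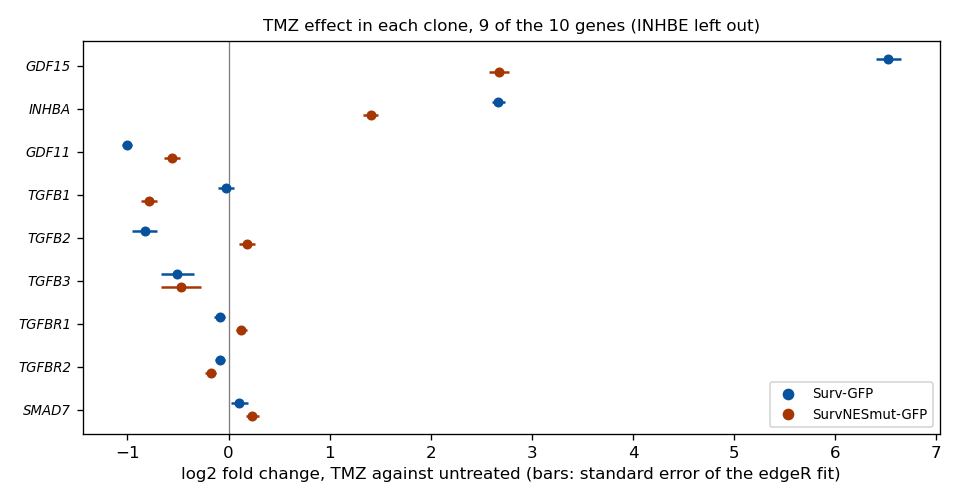
Log2 fold change of TMZ-exposed against untreated libraries in each clone for 9 of the 10 genes, with the standard error of the edgeR fit as bars. INHBE is left out because 1 of its groups holds 1 count. GDF15 and INHBA lie furthest to the right in both clones, with 6.53 and 2.67 in Surv-GFP cells, and GDF11 lies left of 0 in both.

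Levels of different genes were compared as CPM per kilobase of exon in the annotation of the reference. In untreated Surv-GFP cells, TGFB1 was highest with 49.8 ± 1.33 (SD, n = 2), followed by GDF11 with 23.4 ± 0.417, TGFBR2 with 16.8 ± 0.0354 and GDF15 with 13.2 ± 1.33. With TMZ, GDF15 led with 1214 ± 112 (SD, n = 2) CPM per kilobase, ahead of TGFB1 with 48.9 ± 4.14 and INHBA with 40.7 ± 3.32. The libraries of these neighbours in the order did not overlap. In untreated SurvNESmut-GFP cells, TGFB1 led with 113 ± 2.62 (SD, n = 2) and GDF15 followed with 59.2 ± 8.04, and with TMZ the order of these genes turned, with 378 ± 52.6 for GDF15 and 65.3 ± 10.2 for TGFB1. TGFB3 and TGFB2 could not be ordered in TMZ-exposed Surv-GFP cells, where both TGFB2 libraries lay between the TGFB3 libraries of 1.33 and 1.63 CPM per kilobase. INHBE was last in every group, with at most 0.794 CPM per kilobase in any library.

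The test across all genes called 3 of the 10 genes higher and 3 lower upon TMZ in Surv-GFP cells at a Benjamini-Hochberg adjusted p of 0.05, where 30.1% of all tested genes were called higher and 28.9% lower. In SurvNESmut-GFP cells, 4 were called higher and 3 lower, beside 18.6% and 19.1% of all tested genes. For the difference between the TMZ effects, SurvNESmut-GFP minus Surv-GFP, 3 were higher and 3 lower, beside 16.6% and 20.2% of all tested genes. Between untreated clones 5 were higher and 3 lower in SurvNESmut-GFP (34.7% and 29.4% of all tested genes), and between TMZ-exposed clones 5 were higher and 4 lower (34.5% and 34.7%). Because the genes were chosen with these counts known, nothing is read from their number.

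The rest of the pathway was described with 6 lists of other genes written from general knowledge, 143 genes in all, of which 117 had enough counts to be tested. The lists too were written with earlier results of these counts known, so their shares and p-values are a description and not an independent test. Upon TMZ, 44 of the 117 genes were called higher and 41 lower in Surv-GFP cells (37.6% and 35.0%, beside 30.1% and 28.9% of all tested genes), and 31 higher and 41 lower in SurvNESmut-GFP cells (26.5% and 35.0%, beside 18.6% and 19.1%). Their median log2 fold changes were 0.04 in the Surv-GFP clone and -0.09 in the SurvNESmut-GFP clone, beside 0 and 0.00346 over all tested genes. For the difference between TMZ effects, 20 genes were called higher and 42 lower in SurvNESmut-GFP (17.1% and 35.9%, beside 16.6% and 20.2%). These shares of all tested genes stand beside every list below, and nothing is called particular to a list from them. Without Surv-GFP untreated replicate a, the number called lower upon TMZ in Surv-GFP cells was 27 in place of 41.

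Of 17 factors known to drive GDF15 transcription, 10 were called higher and 3 lower upon TMZ in Surv-GFP cells (58.8% and 17.6%, beside 30.1% and 28.9% of all tested genes), with a median log2 fold change of 0.59. ATF3, a stress-induced factor of the ATF family, rose 12.5-fold from 10.1 ± 1.49 to 127 ± 15.8 CPM (SD, n = 2; adjusted p 2.8e-14, edgeR). KLF5, a zinc finger factor, rose 16.5-fold from 16.5 ± 0.444 to 274 ± 4.51 CPM (SD, n = 2; adjusted p 9.3e-16, edgeR). The genes called lower were SP1, TFEB and EGR1, and the first of these had a log2 fold change of -0.13 (adjusted p 0.026, edgeR). Over the alternatives the adjusted p of SP1 ranged from 0.010 to 0.12, past 0.05 without Surv-GFP TMZ replicate a and without either untreated Surv-GFP library. TFEB, a regulator of lysosome genes, had a log2 fold change of -0.37, and its adjusted p ranged from 0.016 to 0.21, past 0.05 with DESeq2 and without Surv-GFP TMZ replicate a or any untreated library of either clone. EGR1 had 1504 and 1100 CPM without and 771 and 1177 CPM with TMZ, which overlapped (adjusted p 0.045, edgeR). It was named after its values were seen and was not put through the alternatives.

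In SurvNESmut-GFP cells, 6 of these 17 factors were called higher and 3 lower upon TMZ (35.3% and 17.6%, beside 18.6% and 19.1%), and the median was 0.06. ATF3 rose 5.21-fold from 16.9 ± 0.602 to 87.9 ± 1.69 CPM (SD, n = 2; adjusted p 1.4e-11, edgeR). DDIT3, which encodes the stress factor CHOP, rose from 14.4 ± 1.23 to 44.8 ± 5.09 CPM (SD, n = 2; log2 fold change 1.64, adjusted p 7.0e-10, edgeR), and in Surv-GFP cells it rose 9.37-fold (adjusted p 1.5e-15, edgeR). KLF5 had 70.1 ± 1.43 CPM without and 68.7 ± 10.1 CPM with TMZ (SD, n = 2). HIF1A, the hypoxia factor, fell by 0.69 and CREB3L2, a membrane-bound factor of the endoplasmic reticulum, by 0.61 on the log2 scale (adjusted p 7.7e-08 and 4.3e-07, edgeR), while both rose in Surv-GFP cells. The third gene called lower was NFE2L2, which was named after its values were seen.

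The difference between the TMZ effects was tested for each of these factors. It was called lower in SurvNESmut-GFP for 11 of the 17 (64.7%, beside 20.2% of all tested genes) and higher for 0 of them by edgeR (beside 16.6%), with 2 higher at an unadjusted p of 0.05 and 0 by DESeq2. For KLF5 it was -4.08 (standard error 0.11, adjusted p 3.9e-13, edgeR). Between the untreated clones, 13 of the 17 were called higher and 4 lower in SurvNESmut-GFP (76.5% and 23.5%, beside 34.7% and 29.4%), and between the TMZ-exposed clones 3 were called higher and 10 lower (17.6% and 58.8%, beside 34.5% and 34.7%). KLF5 was 4.23-fold higher in untreated SurvNESmut-GFP cells (adjusted p 4.7e-12, edgeR), and DDIT3 had a clone difference of -2.64 with TMZ (standard error 0.07, adjusted p 1.4e-14, edgeR). CREB3L1 was called 2.65-fold higher in TMZ-exposed SurvNESmut-GFP cells, at 1.33 ± 0.101 against 0.497 ± 0.0534 CPM (SD, n = 2; adjusted p 0.0032, edgeR). These libraries held 24 and 20 counts against 10 and 8. CREB3L1 passed the filter on low counts only through the SurvNESmut-GFP libraries, so that the filter itself favored a call in this direction.

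**Figure D3:**
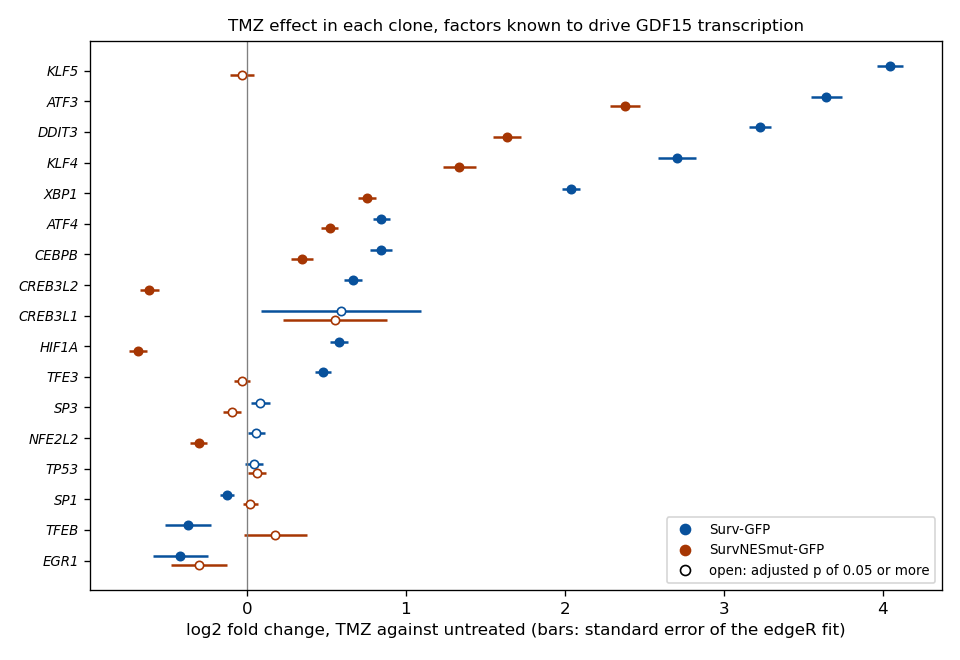
Log2 fold change upon TMZ in each clone for the 17 factors known to drive GDF15 transcription, with standard errors of the edgeR fit as bars and open points for an adjusted p of 0.05 or more. KLF5 lies at 4.05 in Surv-GFP and at -0.03 in SurvNESmut-GFP cells, and ATF3 and DDIT3 lie right of 0 in both clones.

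Other ligands of the activin, GDF and TGF-beta branch mostly had too few counts, and 3 of 15 listed genes could be tested. AMH, the anti-Müllerian hormone, was called lower upon TMZ in Surv-GFP cells (log2 fold change -0.50, adjusted p 0.019, edgeR), from 7.35 ± 0.33 to 5.21 ± 1.40 CPM (SD, n = 2). Over the alternatives the adjusted p ranged from 0.0019 to 0.28, past 0.05 without replicate a of TMZ-exposed Surv-GFP (0.28) and without replicate a of untreated Surv-GFP (0.095). AMH was higher in SurvNESmut-GFP cells than in Surv-GFP cells without TMZ (1.94-fold, adjusted p 2.0e-05) and with it (3.13-fold, adjusted p 6.5e-08, edgeR). INHA, the inhibin alpha subunit that pairs with beta subunits to oppose activin, was lower in SurvNESmut-GFP, with log2 differences of -0.99 without and -0.81 with TMZ (adjusted p 0.0043 and 0.030, edgeR). Over the alternatives the adjusted p ranged from 0.0018 to 0.052 without TMZ and from 0.028 to 0.17 with TMZ. Both passed 0.05 with DESeq2, and the latter also without replicate b of TMZ-exposed Surv-GFP or either TMZ-exposed SurvNESmut-GFP library.

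Of 10 tested receptor and co-receptor genes, 2 were called higher and 3 lower upon TMZ in Surv-GFP cells (20% and 30%, beside 30.1% and 28.9%). ACVR1, a type I receptor also known as ALK2, rose 1.55-fold (adjusted p 9.7e-08) and the co-receptor NRP1 rose 1.71-fold (adjusted p 3.6e-09, edgeR), with log2 fold changes of -0.15 and 0.05 in SurvNESmut-GFP cells that were not called. TGFBR3, the co-receptor betaglycan that presents TGF-beta2, fell from 34.0 ± 0.169 to 13.3 ± 0.549 CPM in Surv-GFP cells and from 20.2 ± 0.891 to 12.6 ± 0.155 CPM in SurvNESmut-GFP cells (SD, n = 2). Its log2 fold changes were -1.35 and -0.68 (adjusted p 6.8e-10 and 2.0e-05, edgeR). ACVR1C, a type I receptor of the activin class, was called lower in Surv-GFP cells (log2 fold change -0.67, adjusted p 0.038). Its adjusted p ranged from 0.025 to 0.19 over the alternatives, past 0.05 with DESeq2 and when any of the 4 Surv-GFP libraries was left out.

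In SurvNESmut-GFP cells, 1 receptor gene was called higher and 2 lower upon TMZ (10% and 20%, beside 18.6% and 19.1%). ENG, the co-receptor endoglin, rose 1.34-fold (adjusted p 1.2e-05, edgeR), while in Surv-GFP cells its log2 fold change was -0.14 (adjusted p 0.029, edgeR), with a range of 0.012 to 0.26 over the alternatives, past 0.05 with DESeq2 and without replicate a of either Surv-GFP group. ACVR2A, a type II activin receptor, was called lower with a log2 fold change of -0.25 (adjusted p 0.032). Its adjusted p ranged from 0.028 to 0.14 over the alternatives, past 0.05 with DESeq2, with library size alone, with the compared libraries alone, and without either untreated SurvNESmut-GFP library or TMZ-exposed replicate a. Between the clones, the co-receptor VASN, a TGF-beta trap, was higher in SurvNESmut-GFP without TMZ (2.09-fold, adjusted p 0.0020) and with it (1.98-fold, adjusted p 0.0045, edgeR), and the latter adjusted p ranged from 0.00095 to 0.079 over the alternatives, past 0.05 without replicate a of TMZ-exposed Surv-GFP. The clone difference of ACVR1B, the type I receptor of activin, was -0.75 with TMZ (adjusted p 5.1e-07, edgeR).

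Of 24 tested genes for binding, processing and activation of the ligands, 8 were called higher and 9 lower upon TMZ in Surv-GFP cells (33.3% and 37.5%, beside 30.1% and 28.9%), and 5 higher and 12 lower in SurvNESmut-GFP cells (20.8% and 50%, beside 18.6% and 19.1%). FST, which encodes follistatin, the secreted protein that binds activin and GDF11, rose from 56.9 ± 10.9 to 116 ± 0.182 CPM in Surv-GFP cells and fell from 35.6 ± 1.51 to 20.1 ± 10.3 CPM in SurvNESmut-GFP cells (SD, n = 2). The log2 fold changes were 1.03 (adjusted p 2.6e-05) and -0.83 (adjusted p 0.0040, edgeR), and the latter ranged from 4.5e-10 to 0.10 over the alternatives, past 0.05 with DESeq2. The fall rests on libraries of 12.9 and 27.4 CPM with TMZ, and without replicate b of TMZ-exposed SurvNESmut-GFP it was -1.46. ITGB8, the integrin beta subunit of a TGF-beta activating integrin, rose 2.38-fold in Surv-GFP cells (adjusted p 1.0e-11, edgeR), and ITGB5, another integrin beta subunit, fell in both clones, in SurvNESmut-GFP cells from 357 ± 16.9 to 227 ± 13.4 CPM (SD, n = 2; adjusted p 1.0e-07, edgeR). DCN, which encodes the TGF-beta binding proteoglycan decorin, fell by 1.10 on the log2 scale in Surv-GFP cells (adjusted p 0.00020, edgeR), and its value in SurvNESmut-GFP cells, -0.35, was not called (adjusted p 0.052). LRRC32, which encodes the TGF-beta docking receptor GARP, held 16 and 14 counts in untreated and 4 and 8 in TMZ-exposed Surv-GFP libraries, and it was called lower with an adjusted p of 0.040 (2.44-fold, or 3.83-fold without replicate b of TMZ-exposed Surv-GFP). Over the alternatives this p ranged from 0.021 to 0.29, past 0.05 with DESeq2, with no filter on low counts, with the replicate block (0.054), and without either untreated Surv-GFP library or TMZ-exposed replicate a. LRRC32 passed the filter on low counts only through the untreated Surv-GFP libraries, so that the filter itself favored a call in this direction.

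The latent TGF-beta binding proteins LTBP1 and LTBP2, which tie latent TGF-beta to the matrix, rose upon TMZ in SurvNESmut-GFP cells, 1.88-fold and 1.75-fold (adjusted p 1.4e-08 and 1.0e-07, edgeR). LTBP1 also rose in Surv-GFP cells, 1.51-fold (adjusted p 1.1e-05, edgeR). LTBP2 had 22.4 ± 2.30 CPM without and 22.6 ± 0.464 CPM with TMZ in Surv-GFP cells (SD, n = 2). THBS1, which encodes thrombospondin-1, an activator of latent TGF-beta, separated the clones most among these genes in the upward direction. It had 136 ± 9.06 CPM in untreated Surv-GFP and 1957 ± 50.1 CPM in untreated SurvNESmut-GFP cells (SD, n = 2), 14.4-fold more (adjusted p 2.8e-15, edgeR). With TMZ the values were 148 ± 9.68 and 2471 ± 365 CPM (SD, n = 2), 16.6-fold apart (adjusted p 2.6e-15, edgeR). LRRC32 held 2 and 0 counts in untreated and 0 counts in both TMZ-exposed SurvNESmut-GFP libraries, each of which allows up to 3 counts.

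Of 30 tested SMADs and intracellular regulators, 13 were called higher and 12 lower upon TMZ in Surv-GFP cells (43.3% and 40%, beside 30.1% and 28.9%), and 6 higher and 10 lower in SurvNESmut-GFP cells (20% and 33.3%, beside 18.6% and 19.1%). TGIF1, a corepressor of SMADs, rose 2.40-fold in Surv-GFP cells (adjusted p 2.6e-11) and had 47.6 ± 2.75 and 48.6 ± 4.52 CPM (SD, n = 2) without and with TMZ in SurvNESmut-GFP cells. USP11, a deubiquitinase of the receptor, rose 1.69-fold in Surv-GFP cells (adjusted p 1.3e-08, edgeR), against a log2 fold change of -0.07 in SurvNESmut-GFP cells that was not called. LDLRAD4, an inhibitor of receptor SMADs, and SMAD6, the other inhibitory SMAD, fell in Surv-GFP cells by 1.93 and 1.55 on the log2 scale (adjusted p 2.0e-05 and 8.6e-05, edgeR). LDLRAD4 had 5.15 and 3.97 CPM without and 0.695 and 1.72 CPM with TMZ in these libraries, 3.81-fold lower, and 6.65-fold lower without replicate b of TMZ-exposed Surv-GFP. In SurvNESmut-GFP cells SMAD6 fell by 0.78 (adjusted p 0.00078, edgeR), and the value of LDLRAD4, 0.03, was not called.

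In SurvNESmut-GFP cells, the ubiquitin ligase genes SMURF2 and NEDD4L rose 1.38-fold and 1.26-fold (adjusted p 7.0e-05 and 0.00039, edgeR), and both also rose in Surv-GFP cells, 1.41-fold and 1.49-fold (adjusted p 2.1e-05 and 5.2e-07, edgeR). BAMBI, a pseudoreceptor, fell by 1.36 and PMEPA1, a target that dampens SMAD signaling, by 0.79 on the log2 scale (adjusted p 1.7e-08 and 1.9e-09, edgeR). In Surv-GFP cells BAMBI fell by 1.32 (adjusted p 4.4e-09), and the difference between its TMZ effects was -0.04 (adjusted p 0.84, edgeR), whereas PMEPA1 had a log2 fold change of 0.12 (adjusted p 0.042, edgeR) that lost its call under most alternatives, with an adjusted p from 0.0058 to 0.37. SKIL, a SMAD corepressor that TGF-beta induces, was 3.72-fold higher in untreated SurvNESmut-GFP than in untreated Surv-GFP cells (adjusted p 1.8e-13, edgeR), and the ubiquitin ligase gene WWP2 was 4.03-fold lower (adjusted p 3.2e-14, edgeR). With TMZ, LDLRAD4 was 5.77-fold higher (adjusted p 3.1e-07, and 9.83-fold higher without replicate b of TMZ-exposed Surv-GFP) and TGIF1 3.08-fold lower (adjusted p 1.6e-12, edgeR) in SurvNESmut-GFP.

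Of 33 tested transcriptional targets of TGF-beta, 11 were called higher and 13 lower upon TMZ in Surv-GFP cells (33.3% and 39.4%, beside 30.1% and 28.9%), and 13 higher and 14 lower in SurvNESmut-GFP cells (39.4% and 42.4%, beside 18.6% and 19.1%). The median log2 fold changes of the list were 0 and -0.12. IL11, a cytokine of the IL-6 family, rose from 6.26 ± 0.267 to 211 ± 10.7 CPM in Surv-GFP cells (SD, n = 2), 33.6-fold (adjusted p 1.5e-15, edgeR), and had 68.1 ± 5.13 and 61.2 ± 9.74 CPM (SD, n = 2) without and with TMZ in SurvNESmut-GFP cells. PTHLH, the parathyroid hormone related protein, rose 17.8-fold in Surv-GFP cells (adjusted p 2.3e-11) and 2.99-fold in SurvNESmut-GFP cells (adjusted p 7.1e-06, edgeR). ACTA2, smooth muscle actin, rose 2.97-fold in SurvNESmut-GFP cells (adjusted p 4.5e-10, edgeR) and 5.24-fold in Surv-GFP cells, from 18.3 ± 1.31 to 96.0 ± 5.78 CPM (SD, n = 2; adjusted p 3.6e-13, edgeR). COL3A1, a fibrillar collagen, fell in SurvNESmut-GFP cells from 6.65 ± 0.891 to 2.01 ± 0.451 CPM (SD, n = 2; adjusted p 9.7e-06, edgeR), and in Surv-GFP cells, at 0.630 ± 0.201 and 1.20 ± 0.256 CPM (SD, n = 2), it was not called (adjusted p 0.051). SNAI1, which encodes the epithelial-mesenchymal transition factor Snail, fell in Surv-GFP cells by 1.43 and in SurvNESmut-GFP cells by 1.17 on the log2 scale (adjusted p 4.7e-10 and 2.9e-08, edgeR). JUNB, an AP-1 subunit, fell by 0.95 in Surv-GFP cells (adjusted p 0.00011, edgeR). Its value in SurvNESmut-GFP cells was -0.58 (adjusted p 0.014, edgeR; 8.6e-07 to 0.17 over the alternatives, past 0.05 with DESeq2 and without either untreated library or TMZ-exposed replicate a). Of the 56 genes named from the members and lists, 22 have exons that overlap those of another gene in the annotation of the reference. The counts of these genes are uncertain to the extent that shared reads stayed out or were assigned to them. Beside GDF11, TGFB2 and TGFB3 these are ACTA2, ACVR2A, AMH, COL3A1, DDIT3, ENG, HIF1A, ITGB8, JUNB, LDLRAD4, LRRC32, LTBP1, LTBP2, NEDD4L, NRP1, PMEPA1, PTHLH, TAGLN and THBS1.

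**Figure D4:**
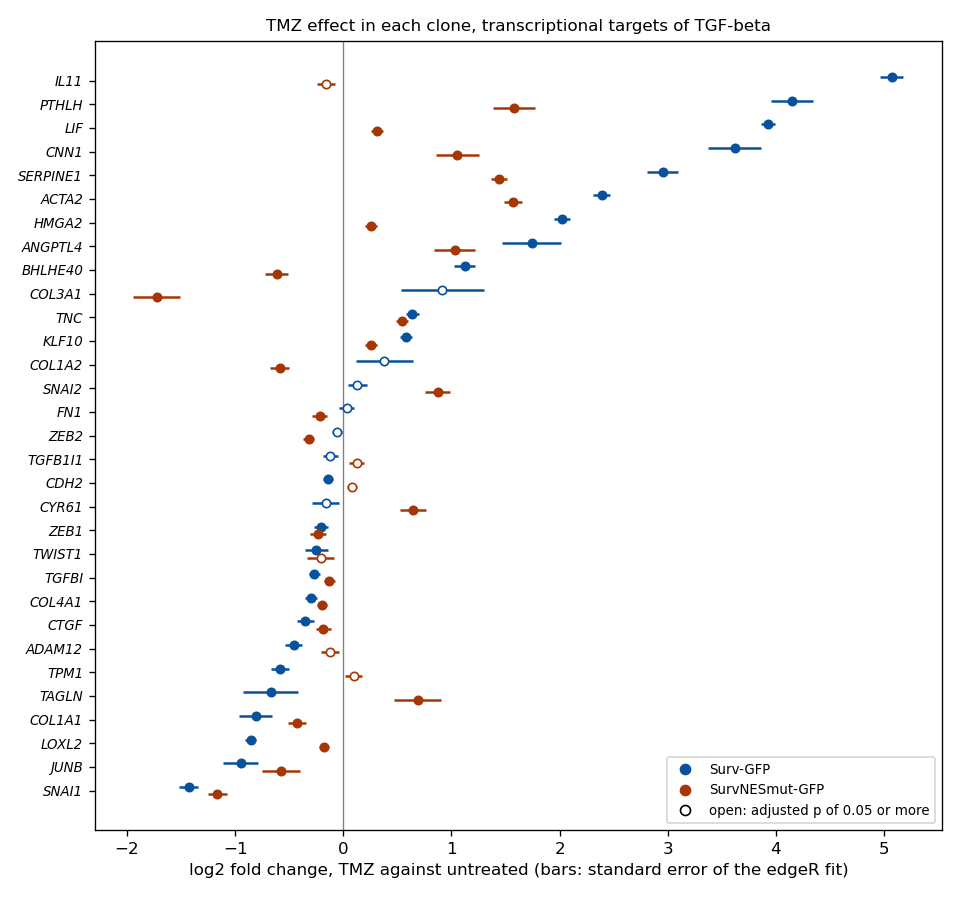
Log2 fold change upon TMZ in each clone for 31 of the 33 tested transcriptional targets of TGF-beta, with standard errors of the edgeR fit as bars and open points for an adjusted p of 0.05 or more. NOX4 and PDGFB are left out because they had few or no counts in Surv-GFP cells. IL11 lies at 5.07 in Surv-GFP and at -0.16 in SurvNESmut-GFP cells, and SNAI1 lies left of 0 in both clones.

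Between the untreated clones, 20 of the 33 targets were called higher and 7 lower in SurvNESmut-GFP (60.6% and 21.2%, beside 34.7% and 29.4%), and between the TMZ-exposed clones 18 were called higher and 12 lower (54.5% and 36.4%, beside 34.5% and 34.7%). PDGFB, a platelet-derived growth factor subunit, held 1 count in each untreated Surv-GFP library and 810 and 721 counts in the untreated SurvNESmut-GFP libraries. NOX4, an oxidase that produces hydrogen peroxide, held 0 counts in every Surv-GFP library, each of which allows up to 3 counts. In SurvNESmut-GFP libraries it held 67 and 65 counts without TMZ and fewer, 27 and 32 counts, with it. PDGFB and NOX4, both among the 33 targets, passed the filter on low counts only through the SurvNESmut-GFP libraries. The filter itself therefore favored calls of these genes as higher in SurvNESmut-GFP. In the other direction, SNAI2, which encodes the transition factor Slug, was 3.23-fold lower in untreated SurvNESmut-GFP cells (adjusted p 4.4e-10), and IL11 was 3.45-fold lower in TMZ-exposed SurvNESmut-GFP cells (adjusted p 8.6e-12, edgeR).

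The genes whose levels were most like those of GDF15 were found by the distance between log2 CPM profiles over the 8 libraries, each centred on its own mean. The 5 nearest of the tested genes were TRIML2, LURAP1L, IL1A, CATIP and CHAC1, at distances of 1.51 to 2.56, and the Pearson r with GDF15 ranged from 0.945 to 0.995 over these libraries. The 5 nearest to INHBE were CST7, ALDH1L2, SYBU, KRT7 and AHNAK2 at distances of 0.758 to 1.23. Untreated INHBE libraries held at most 3 counts, so that the prior count of 2 sets much of its log2 CPM there. For SMAD7 the 5 nearest were TCIRG1, SERTAD4-AS1, ZNF469, MYO1C and RAB3IP at 0.106 to 0.281. The distances of the 3 genes are not on 1 scale, since their own distances from a flat profile were 7.06 for GDF15, 4.18 for INHBE and 1.83 for SMAD7. The 8 libraries form 4 groups, so these values describe mainly the pattern of 4 group means.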

How the data were processed

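The authors sequenced total RNA on the Illumina platform and deposited unnormalized read counts per gene symbol for the 8 libraries. The submitters' processing notes name STAR 2.5.0b, Cufflinks 2.2.1 and edgeR without their roles. The genome build, annotation, counting program and strandedness remain not given in the sources used here. Of the authors' files, 5 comparison tables (log2 fold changes, log2 CPM, F, p and FDR) were not used. All groups follow the sample labels; the tables may group the libraries by letter instead, which was not tested here. Reads on no gene (11.2% to 14.3%) or several (1.19% to 1.28%) stayed out.

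Counts were fitted with edgeR 4.0.16 (R 4.3.3, limma 3.58.1) in one model of 4 group means, with TMM scaling, edgeR's group-wise low-count filter and the quasi-likelihood F test in its earlier form. P-values were adjusted by Benjamini-Hochberg over all 14201 tested genes. A standard error is the log2 fold change divided by the square root of F. Distances used log2 CPM with a prior count of 2. Alternatives were DESeq2 (1.42.0), other scalings, no filter, edgeR's newer method, the replicate block, fits to the compared libraries alone, and leaving out each library.

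The genes and lists were chosen with earlier results of these data known. Genes named from a list were, with exceptions marked in the text, the largest called changes in each direction, 2 per TMZ effect (without overlapping libraries) and 1 per other comparison. On simulated data, edgeR recovered 184 of 200 genes with a log2 change of 1 in the Surv-GFP TMZ effect, among 13970 genes, and called 18 unchanged genes. For the difference between TMZ effects it recovered 173 of 200 and called 21 unchanged genes. Far fewer genes changed in the simulation than in the data, where 4271 were called higher and 4100 lower in the Surv-GFP TMZ effect. Exon lengths came from GENCODE (GRCh38), which may differ from the annotation the authors used. Over all tested genes no pairing by letter was seen, with deviations of same-lettered libraries correlated at r between -0.0671 and 0.0832. A pairing that touches only some genes would not show in these values, so it is not excluded. The letters of each group differed beyond sampling noise. Their chi-square per degree of freedom was 5.62 in TMZ-exposed SurvNESmut-GFP and 2.18 to 2.62 in the other groups.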

Additional observations from a re-analysis of the deposited data

Results flagged for a closer look

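The response to TMZ differed between the clones for 62 of the 117 tested pathway genes by edgeR's test of the difference itself (SurvNESmut-GFP minus Surv-GFP, adjusted p over all tested genes). Of these, 42 were lower and 20 higher (35.9% and 17.1% of the 117, beside 20.2% and 16.6% of all tested genes). Given here are the largest called difference of each list in each direction, and those genes named above that were called in opposite directions in the clones. For IL11 and KLF5 the differences were -5.23 (adjusted p 3.9e-13) and -4.08 (adjusted p 3.9e-13), with 2 of 2 TMZ-exposed Surv-GFP libraries above both untreated ones. Differences below 0 were also found for FST (-1.86, adjusted p 3.0e-05, and -2.50 without replicate b of TMZ-exposed SurvNESmut-GFP), ITGB8 (-1.41, adjusted p 1.5e-09), CREB3L2 (-1.28, adjusted p 6.2e-09), HIF1A (-1.27, adjusted p 5.5e-09), TGIF1 (-1.23, adjusted p 3.6e-08), SKIL (-1.02, adjusted p 2.0e-07), PMEPA1 (-0.91, adjusted p 3.1e-08) and ACVR1 (-0.79, adjusted p 1.9e-06). Differences above 0 were found for LDLRAD4 (1.97, adjusted p 0.00031, and 2.77 without replicate b of TMZ-exposed Surv-GFP), TAGLN (1.36, adjusted p 0.0042), LTBP2 (0.80, adjusted p 2.2e-05), AMH (0.69, adjusted p 0.018), TGFBR3 (0.67, adjusted p 0.00052) and ENG (0.56, adjusted p 2.4e-05). FST, ITGB8, HIF1A, CREB3L2, SKIL and PMEPA1 were called higher upon TMZ in Surv-GFP and lower in SurvNESmut-GFP cells, and TAGLN and ENG the other way round. Of these, HIF1A, CREB3L2 and SKIL held both calls under every alternative, while FST in SurvNESmut-GFP, ITGB8 in SurvNESmut-GFP, PMEPA1 and ENG in Surv-GFP and TAGLN in both clones lost theirs under at least 1, with adjusted p values of up to 0.10, 0.12, 0.37, 0.26, 0.23 and 0.30. The adjusted p of AMH ranged from 0.0020 to 0.14 over the alternatives, past 0.05 when replicate a of untreated or TMZ-exposed Surv-GFP or of untreated SurvNESmut-GFP was left out.

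TGFB2 and TGFBR1 had log2 fold changes of opposite sign in the clones, with both TMZ-exposed libraries on the same side of both untreated ones in each clone. The difference between the TMZ effects was 1.01 for TGFB2 and 0.22 for TGFBR1 on the log2 scale. Of the TMZ effects behind them, the test called that of TGFB2 in Surv-GFP cells alone, and the value of TGFB2 in SurvNESmut-GFP cells was 0.07 without TMZ replicate a. Both genes are among the 3 of the 10 whose difference the fit across all genes called higher, beside 16.6% of all tested genes. Because the genes were chosen with results of these counts known, nothing is read from these calls and no p is given.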

How the results depend on the processing

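The number of pathway genes called stayed within 1.5 times its main value under every alternative, with 1 exception. Without Surv-GFP untreated replicate a, 27 in place of 41 genes were called lower upon TMZ in Surv-GFP cells. Over all libraries left out in turn, this number ranged from 27 to 42, and the number called higher from 38 to 46. In SurvNESmut-GFP cells the ranges were 28 to 31 higher and 31 to 46 lower, and for the difference between TMZ effects 14 to 23 higher and 35 to 45 lower. Between untreated clones they were 60 to 64 higher and 25 to 29 lower, and between TMZ-exposed clones 42 to 50 higher and 37 to 47 lower. With the replicate block, 44 genes were called higher and 40 lower upon TMZ in Surv-GFP cells and 31 and 40 in SurvNESmut-GFP cells, and among the values of named list genes it ended 1 call, that of LRRC32 upon TMZ in Surv-GFP cells (adjusted p 0.054, range over the alternatives 0.021 to 0.29). With each library left out, the lone library of its group was assumed to vary like the others.

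Of the 50 log2 fold changes of the 10 genes, between 47 and 50 kept their direction under each alternative that gave all 50, and no value that the test had called changed sign. Of the values for other named genes under an alternative, 86 lost their call and 1625 kept it. Among the values given for other named genes, leaving out 1 library moved those of LRRC32, LDLRAD4 and FST by over 1.5 times, as stated beside them.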
